A study of Mus musculus with 18 samples.

Results

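Described here are 9 receptor genes of macrophages, 9 of the 19475 genes measured: the chemokine receptors Cx3cr1, Cxcr4, Ccr1 and Ccr2, the atypical chemokine receptor Ccrl2, and the lipid receptors S1pr1, Lpar6, Gpr183 and Cnr2. They were selected by hand with measured values of these same arrays in view, and each was read from its 1 probe set assigned to a single gene. The adjusted p-values below therefore place each receptor among all genes and do not stand as independent support for its direction. The macrophages were grown from mouse bone marrow in medium conditioned by L929 cells and used on day 7. The donor mice had a mixed background, 94% C57BL/6 and 6% 129/Ola. One genotype was Wbp7+/- (HET) and the other Wbp7-/- (KO); Wbp7, also called Kmt2b, encodes an enzyme that methylates histone H3. The HET controls thus also lack a working copy of the gene, and no wild-type cells are among the samples. Each genotype was left untreated or given 10 ug/ml of lipopolysaccharide (LPS), a cell wall component of Gram-negative bacteria, for 2 h or 4 h, with 3 Affymetrix arrays in each of the 6 groups. The labels do not say that arrays of a group came from separate mice or cultures, so the p-values measure the spread between these samples, which may be technical.

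These receptors span the membrane repeatedly and, Ccrl2 apart, signal through G proteins. They steer cells along gradients of chemokines or of lipids such as sphingosine 1-phosphate, lysophosphatidic acid, oxysterols and endocannabinoids. In macrophages they set which tissues a cell enters, where it stays and which neighbours it meets, and LPS sensed through Tlr4 is known to change the levels of several of them. Values are log2 signal on the arrays and differences are log2 differences, given with the standard error (SE) of a linear model fitted to all genes with limma. A gene counted as passed, and is said to have risen or fallen, at an adjusted p under 0.05 (Benjamini-Hochberg, over all genes). As RNA was taken from bulk cultures, fewer cells carrying a receptor and less receptor RNA per cell cannot be told apart. Levels of different receptors are not compared, since each probe set has its own brightness.

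The arrays had median signals between 8.05 and 8.13. Of the macrophage markers, 10 of 11 lay above the upper quartile of signal on every array, as did 1 of 10 dendritic cell and 1 of 7 monocyte markers. Below the lower quartile on every array lay 6 of 13 lymphocyte, 2 of 10 stromal and 1 of 12 neutrophil markers. For the dendritic cell and monocyte lists that number was 0. The mean signal of the neutrophil list per array ran from 8.16 to 9.15. The HET arrays numbered 1 stood apart at all 3 times: their differences from the arrays of the same group had an SD over genes between 0.435 and 0.531, where other pairs had 0.175 to 0.279, and 17, 18 and 17 of 19 cell cycle genes were over 1 log2 unit lower in them than in the other HET arrays on average (untreated, 2 h and 4 h). Wbp7 itself did not differ beyond the spread: the value in KO less that in HET was −0.24 in untreated cells (SE 0.156, adjusted p = 1). It was −0.06 after 2 h of LPS (adjusted p = 0.915), and after 4 h it was −0.09 (adjusted p = 0.718). Since the sources used here do not say where on the transcript its probe set lies, it could not check the genotype labels.

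The LPS responses ask which receptor transcripts changed within hours of stimulation. In HET cells Ccrl2 rose and the other 8 receptors had values below their untreated level, with 7 of the 9 differences passing at 2 h and 8 at 4 h. At 2 h, 6 passed as lower, where 10.0% of all genes did, and 1 as higher (5.56% of all genes). By 4 h, 7 passed as lower (20.7% of all genes) and 1 as higher (15.7%). In KO cells Ccrl2 also rose and the other 8 values were below 0 at both times, and those that passed were 3 lower (1.35% of all genes) and 1 higher (2.00%) at 2 h, then 5 lower (9.28%) and 1 higher (6.48%) at 4 h. The median over the receptors was −1.53 in HET and −1.05 in KO at 2 h, and −2.69 and −1.99 at 4 h, beside medians over all genes of 0.02, 0.02, 0.09 and 0.02. Median absolute changes over all genes were 0.153, 0.108, 0.252 and 0.153 in the same order. The responses at the 2 times share their untreated arrays, as do all LPS responses of a genotype. Fitted with arrays of the same number and genotype as a block, all 9 receptors passed at 4 h in both genotypes, and 9 (HET) and 7 (KO) at 2 h. The share of all genes passing with that block was not counted, so the shares above do not serve as its background. Some markers of cell types also passed with LPS at 4 h. Over all genes, 15.7% rose and 20.7% fell in HET at that time, and 6.48% rose and 9.28% fell in KO. In HET, 2 of 11 macrophage, 2 of 7 monocyte, 3 of 12 neutrophil, 4 of 10 dendritic cell, 2 of 13 lymphocyte and 4 of 10 stromal markers rose and none fell. In KO, 4 macrophage markers rose and 1, Mertk, fell, and 2 monocyte, 2 dendritic cell and 2 stromal markers rose, with none of the neutrophil or lymphocyte lists called by limma (unadjusted p under 0.05 for 1 and 0). Of all 19475 genes, 5141 had such an unadjusted p in KO. The mean signal of the stromal list per array ran from 7.28 to 7.52 untreated and from 7.77 to 8.11 at 4 h in HET, and from 7.16 to 7.49 and from 7.5 to 7.9 in KO. That of the dendritic cell list ran from 7.4 to 7.81 and from 7.76 to 8.14 in HET, and from 7.43 to 7.66 and from 7.77 to 7.99 in KO. Their part in the receptor changes was not tested.

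**Figure D1:**
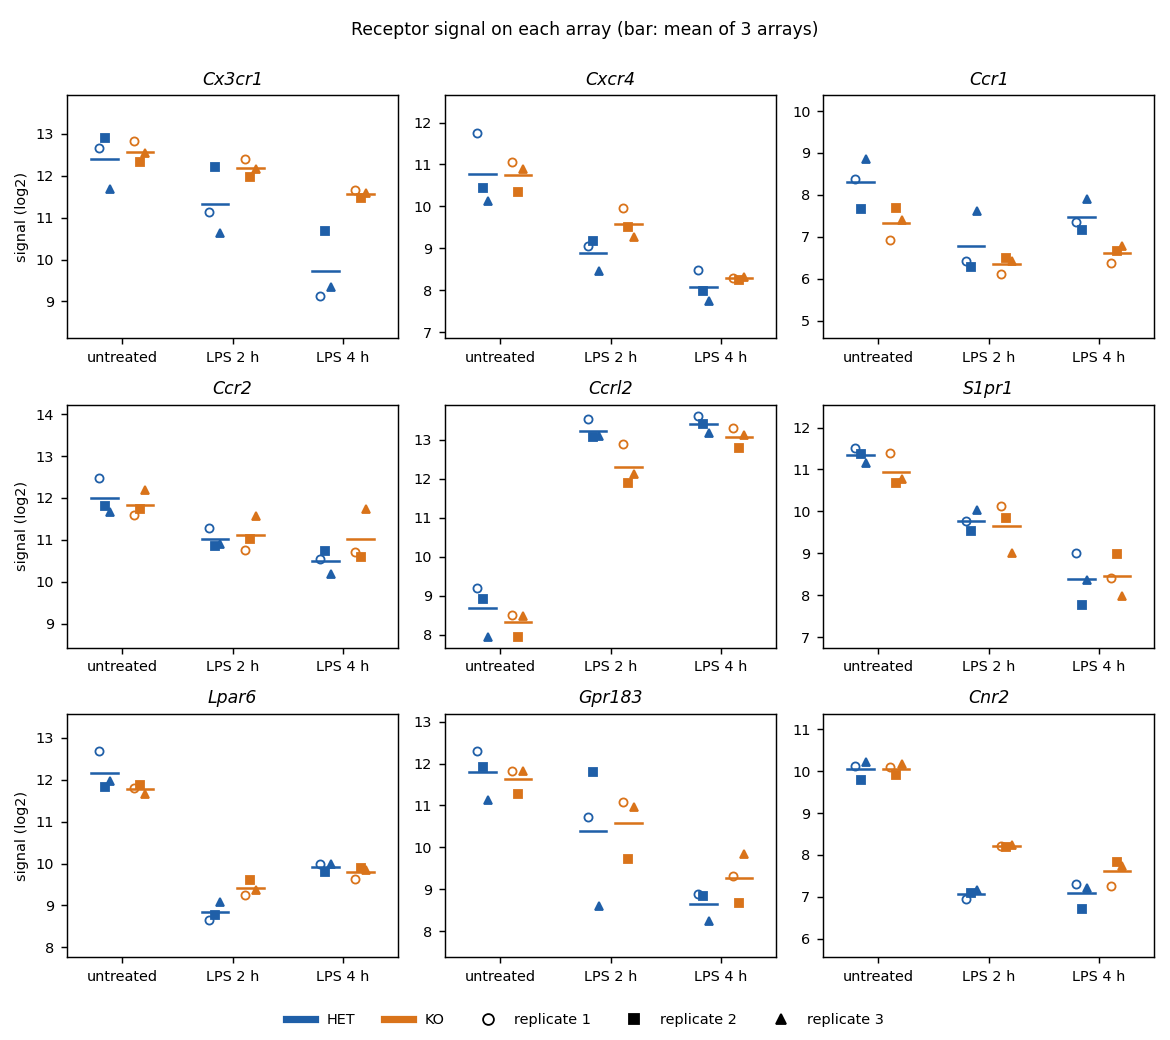
Log2 signal of each receptor on every array, by treatment (x axis) and genotype (colour), with a bar at the mean of 3 arrays and open circles for replicate 1. Ccrl2 climbs from 7.95 to 9.21 in untreated cells to between 11.9 and 13.62 after LPS, and the means of the other receptors sit lower after LPS than before.

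Ccrl2, an atypical receptor that holds the attractant chemerin at the cell surface and does not signal to G proteins, was the receptor that rose. In HET cells the 3 arrays read 9.21, 8.91 and 7.95 untreated, 13.53, 13.07 and 13.11 at 2 h, and 13.62, 13.42 and 13.19 at 4 h. In KO cells they read 8.52, 7.95 and 8.49 untreated, 12.9, 11.9 and 12.12 at 2 h, and 13.3, 12.79 and 13.13 at 4 h. Every LPS array lay above every untreated array, and at 2 h the KO arrays lay below all HET arrays without overlap. The rise at 2 h was 4.55 in HET (SE 0.3, adjusted p = 7.79e-08), a 23.4-fold change, and 3.99 in KO (adjusted p = 7.25e-07), a 15.8-fold change. At 4 h it was 4.72 in HET and 4.76 in KO. KO minus HET at 2 h was −0.93 (SE 0.3, adjusted p = 0.124) and did not pass, nor did the difference between the 2 h responses, −0.56 (95% interval −1.47 to 0.34). With replicate number as a block over all arrays that KO minus HET value did pass (adjusted p = 0.0326). From 2 h to 4 h the level moved by 0.18 in HET (adjusted p = 0.799) and by 0.77 in KO (adjusted p = 0.215; 0.0287 with the block within genotype).

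The promoter window of Ccrl2 is printed because it belongs to the receptor that rose, beside those of Cnr2 and Cx3cr1, whose values differed between the genotypes under LPS. Each run holds 250 bases before and 50 after the RefSeq transcript start (build GRCm38.p6), 5′ to 3′ on the gene's strand, and capitals mark a match to a searched motif on either strand.
Ccrl2 (chr9:111057469-111057768, minus strand): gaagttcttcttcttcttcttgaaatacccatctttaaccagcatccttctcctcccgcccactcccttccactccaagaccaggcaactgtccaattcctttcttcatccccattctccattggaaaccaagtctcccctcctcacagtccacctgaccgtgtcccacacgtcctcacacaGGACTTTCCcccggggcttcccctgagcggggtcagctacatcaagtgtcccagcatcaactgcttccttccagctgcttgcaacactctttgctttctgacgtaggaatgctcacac
Cnr2 (chr4:135894939-135895238, plus strand): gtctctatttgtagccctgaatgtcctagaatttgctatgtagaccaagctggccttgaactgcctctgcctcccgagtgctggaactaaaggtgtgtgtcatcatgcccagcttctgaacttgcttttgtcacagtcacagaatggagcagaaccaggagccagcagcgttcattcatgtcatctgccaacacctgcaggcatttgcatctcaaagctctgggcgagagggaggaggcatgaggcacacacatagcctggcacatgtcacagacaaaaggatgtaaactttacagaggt
Cx3cr1 (chr9:120068247-120068546, minus strand): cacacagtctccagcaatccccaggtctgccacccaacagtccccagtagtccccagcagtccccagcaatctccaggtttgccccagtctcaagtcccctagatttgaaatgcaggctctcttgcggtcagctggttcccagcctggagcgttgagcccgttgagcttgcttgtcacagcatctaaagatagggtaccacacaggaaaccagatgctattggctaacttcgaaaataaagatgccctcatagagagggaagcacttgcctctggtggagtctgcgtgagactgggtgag
The motifs searched, on both strands, were a kappaB core (GGANTTTCC), an interferon-stimulated response element core (TTTCNNTTT), an AP-1 motif (TGANTCA) and a PU.1 core (GAGGAA). In the Ccrl2 window printed, the capitals show a kappaB core, GGACTTTCC, whose first base lies at −68 from the start; 1.25% of the 32851 windows in the RefSeq table hold that motif. No searched motif was found in the printed windows of Cnr2 and Cx3cr1. In all, 8 of the 9 receptors matched a window, 11 windows in total, as Ccrl2 had 3 and Cnr2 2; for both the first listed is printed, and the rest held no searched motif. Among the others, the interferon-stimulated response element core, found in 10.6% of all windows, occurred at 2 positions in that of Ccr1 and at 1 in that of Gpr183. Ccr1 also held the PU.1 core (28.3% of all windows), and the AP-1 motif (7.81% of all windows) was in none. A match of letters is a description of the sequence and does not show that a factor binds there.

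Cnr2, the CB2 receptor for endocannabinoids that immune cells carry, fell in both genotypes and was higher in KO than in HET cells at 2 h. Its HET arrays read 10.12, 9.79 and 10.22 untreated, 6.95, 7.08 and 7.16 at 2 h, and 7.31, 6.7 and 7.22 at 4 h. Its KO arrays read 10.1, 9.91 and 10.17 untreated, 8.21, 8.18 and 8.24 at 2 h, and 7.26, 7.83 and 7.73 at 4 h. The untreated arrays of the genotypes overlapped, the 2 h arrays were separate with all KO arrays higher, and the 4 h arrays overlapped again. The fall at 2 h was −2.98 in HET (SE 0.167, adjusted p = 1.17e-08) and −1.85 in KO (adjusted p = 4.98e-06). HET cells were at the same level at 4 h (−2.97 from untreated), and KO cells had moved down to −2.45. That further KO change from 2 h to 4 h, −0.60, had an adjusted p of 0.0538, and 0.00947 with the block within genotype. On 2 arrays Cnr2 lay below the lower quartile of signal, where the size of a difference is uncertain.

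KO minus HET for Cnr2 was 0.02 untreated, 1.15 at 2 h (SE 0.167, adjusted p = 0.00242), a 2.22-fold difference, and 0.53 at 4 h (SE 0.167, adjusted p = 0.102, and 0.0429 without KO replicate 1). The 2 h call was kept whichever of its 6 arrays was left out, with a highest adjusted p of 0.015. The difference between the genotypes' 2 h responses was 1.13 (SE 0.236, adjusted p = 0.305), and 0.0335 with the block within genotype. Between arrays of the same number, the 2 h changes of Cnr2 were −3.18, −2.71 and −3.06 in HET and −1.89, −1.74 and −1.93 in KO, with no overlap.

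Lpar6, a receptor for lysophosphatidic acid, had the deepest fall of the 9 at 2 h and in HET cells rose again by 4 h. Its HET arrays read 12.68, 11.82 and 11.98 untreated, 8.65, 8.78 and 9.08 at 2 h, and 9.98, 9.8 and 9.99 at 4 h. Its KO arrays read 11.8, 11.88 and 11.65 untreated, 9.24, 9.61 and 9.37 at 2 h, and 9.63, 9.89 and 9.84 at 4 h. Within each genotype the 3 times did not overlap, and at 2 h all KO arrays lay above all HET arrays. The change of Lpar6 at 2 h was −3.32 in HET (SE 0.18, adjusted p = 8.22e-09), a 10.0-fold fall, and −2.37 in KO (adjusted p = 7.25e-07), a 5.18-fold fall. From 2 h to 4 h it rose by 1.09 in HET (adjusted p = 0.00155), and the KO difference of 0.38 did not pass (adjusted p = 0.36). KO minus HET was −0.38 untreated, 0.57 at 2 h (SE 0.18, adjusted p = 0.116) and −0.14 at 4 h. The difference between the 2 h responses, 0.95 (95% interval 0.41 to 1.49), had an unadjusted p of 0.0019 and an adjusted p of 0.483.

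S1pr1, the sphingosine 1-phosphate receptor that draws cells towards blood and lymph, fell in both genotypes at both times. In HET it read 11.52, 11.36 and 11.16 untreated, 9.78, 9.52 and 10.03 at 2 h, and 9.01, 7.77 and 8.36 at 4 h. In KO it read 11.4, 10.67 and 10.78, then 10.12, 9.83 and 9.01, then 8.41, 8.99 and 7.98. The times did not overlap within a genotype, and the genotypes overlapped at every time. By 4 h the fall was −2.97 in HET (SE 0.333, adjusted p = 7.19e-06) and −2.49 in KO (adjusted p = 7.78e-05), and the responses differed by 0.48 (95% interval −0.52 to 1.48). At 2 h the fall was −1.57 in HET (adjusted p = 0.00398) and −1.29 in KO (adjusted p = 0.0448). The KO call at 2 h was lost without any one of untreated replicates 1 (adjusted p = 0.208), 2 (0.069) and 3 (0.0987) or 2 h replicates 2 (0.0861) and 3 (0.232), after quantile normalization (0.0868) and with an intensity trend and robust prior (0.0512). The step from 2 h to 4 h was −1.40 in HET (adjusted p = 0.0165) and −1.19 in KO (adjusted p = 0.0563, and 0.00722 with the block). The HET step was lost without 4 h replicate 2 (0.0695) or 2 h replicate 3 (0.0689), and with only its own arrays fitted (0.119).

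Gpr183, also called EBI2, guides immune cells along gradients of oxysterols, oxidised forms of cholesterol, and had the largest SE of the 9 receptors. Its HET arrays read 12.31, 11.92 and 11.14 untreated, 10.73, 11.81 and 8.6 at 2 h, and 8.88, 8.84 and 8.25 at 4 h. Its KO arrays read 11.82, 11.27 and 11.83 untreated, 11.09, 9.72 and 10.97 at 2 h, and 9.32, 8.68 and 9.85 at 4 h. The 2 h HET arrays ran from 8.6 to 11.81 and overlapped both other times. At 2 h the difference was −1.41 in HET (SE 0.607, adjusted p = 0.15, and 0.0258 with the block) and −1.05 in KO (adjusted p = 0.574). The HET value passed without 2 h replicate 2 (−2.12, adjusted p = 0.0176), and without 2 h replicate 3 the HET step from 2 h to 4 h did (−2.61, adjusted p = 0.0039). By 4 h the change was −3.13 in HET (adjusted p = 0.000887) and −2.35 in KO (adjusted p = 0.014). That KO call was lost without 4 h replicate 2 (adjusted p = 0.0611) or untreated replicate 3 (0.055). KO minus HET at 4 h was 0.63 with a 95% interval of −0.67 to 1.92, too wide to tell whether the genotypes differed.

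In RefSeq the protein-coding gene listed just before Gpr183 on chromosome 14 is Gpr18, a further receptor assigned to lipid ligands. Gpr18 rose while its neighbour Gpr183 fell: its HET arrays read 8.22, 8.05 and 8.02 untreated and 10.9, 11.1 and 11.17 at 4 h, with no overlap. The 4 h change of Gpr18 was 2.96 in HET (SE 0.16, adjusted p = 7.28e-09) and 2.50 in KO (adjusted p = 6.32e-08), and both calls were kept whichever array of the comparison was left out.

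**Figure D2:**
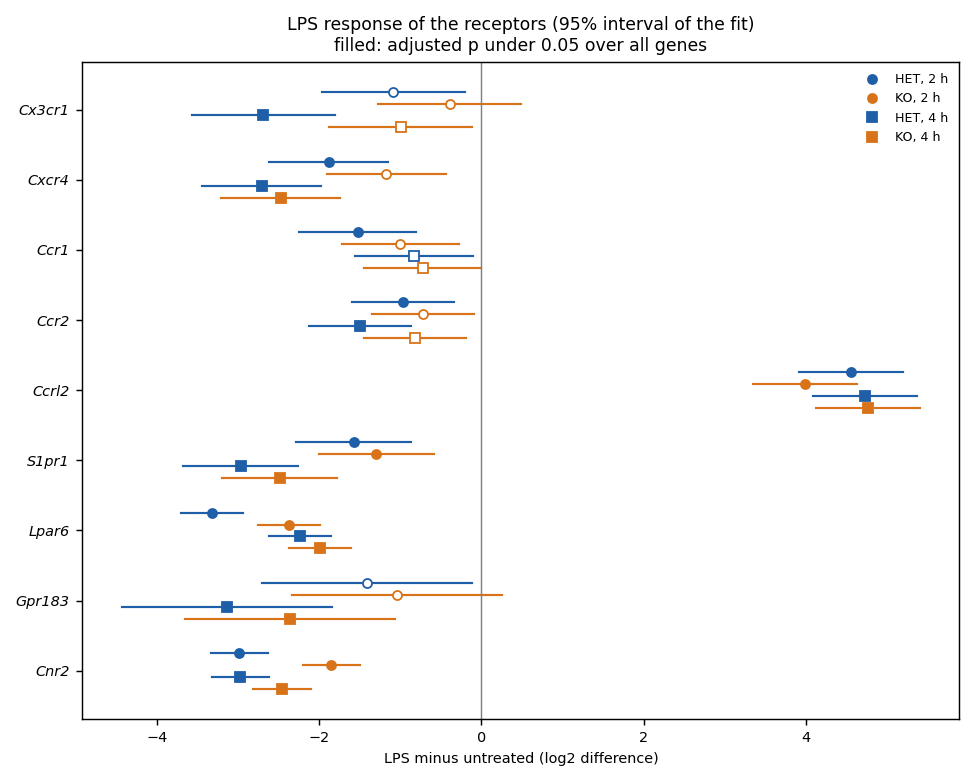
Difference of LPS-treated from untreated cells for each receptor (x axis, log2), by genotype and time, with the 95% interval of the limma fit and filled symbols for an adjusted p under 0.05. Ccrl2 lies between 3.99 and 4.76, and the other 8 receptors lie below 0 in all 4 responses, from −0.39 (Cx3cr1, KO at 2 h) to −3.32 (Lpar6, HET at 2 h).

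Cx3cr1, the receptor for the membrane-bound chemokine fractalkine, was higher in KO than in HET cells after 4 h of LPS. The HET arrays read 12.66, 12.9 and 11.68 untreated, 11.13, 12.22 and 10.64 at 2 h, and 9.14, 10.69 and 9.35 at 4 h. The KO arrays read 12.83, 12.33 and 12.54 untreated, 12.4, 11.98 and 12.16 at 2 h, and 11.66, 11.46 and 11.6 at 4 h. The genotypes overlapped in untreated cells and at 2 h, and at 4 h every KO array lay above every HET array. At 2 h the difference from untreated was −1.09 in HET (SE 0.413, adjusted p = 0.0972) and −0.39 in KO (adjusted p = 0.809). By 4 h HET cells had fallen by 2.69 (adjusted p = 0.000122), a 6.45-fold change, and the KO difference of −0.99 had an adjusted p of 0.13. The HET value at 2 h passed without 2 h replicate 2 (0.0159) or untreated replicate 3 (0.0377). With the block within genotype that value (adjusted p = 0.00673) and the KO value at 4 h (0.0116) passed. The HET step from 2 h to 4 h, −1.60 (adjusted p = 0.0246), was lost without 4 h replicate 1 (0.122), 2 h replicate 2 (0.145) or 4 h replicate 3 (0.081), without the HET arrays numbered 1 (0.0808) and with only its own arrays (0.273).

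KO minus HET for Cx3cr1 was 0.15 untreated, 0.85 at 2 h (adjusted p = 0.355) and 1.85 at 4 h (SE 0.413, adjusted p = 0.0301), a 3.6-fold difference. The 4 h call was kept without HET replicate 2 alone and lost without HET replicate 1 (adjusted p = 0.149) or 3 (0.0632) or KO replicate 1 (0.0701), 2 (0.105) or 3 (0.0977), with values from 1.55 to 2.33. It was also lost without the 3 HET arrays numbered 1 (1.55, adjusted p = 0.0743) and with only the 6 arrays of the comparison fitted (0.126). HET replicate 1 had the lowest 4 h value, −0.88 from the average of the other HET arrays. The difference between the 4 h responses was 1.69 (95% interval 0.45 to 2.94), with an unadjusted p of 0.0108 and an adjusted p of 0.518. Between arrays of the same number the 4 h changes were −3.53, −2.2 and −2.33 in HET and −1.17, −0.87 and −0.94 in KO. Among the monocyte markers, 1 of 7, Chil3, was also higher in KO at 4 h (1.13, adjusted p = 0.0483), as it was in untreated cells (1.46, adjusted p = 0.0338), the list's mean signal per array ran from 9.55 to 10.38 in HET and from 9.73 to 10.27 in KO, and its part in the Cx3cr1 difference was not tested.

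**Figure D3:**
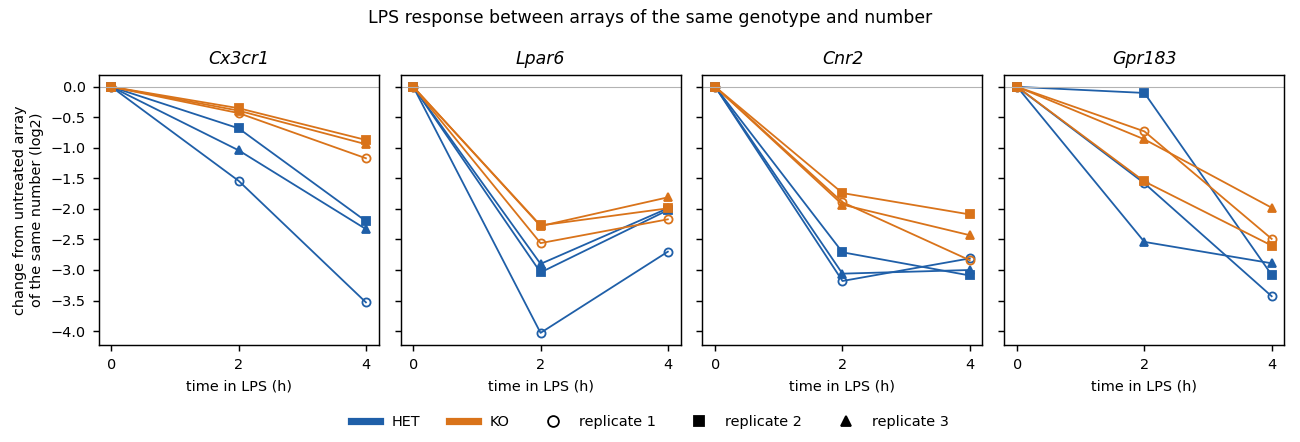
Change in log2 signal from the untreated array of the same genotype and number (y axis) against time in LPS (x axis) for 4 receptors, with 1 line per number. At 2 h the KO lines of Cx3cr1, Lpar6 and Cnr2 lie above all HET lines, and at 4 h those of Cx3cr1 and Gpr183 do.

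Cxcr4, the receptor for Cxcl12 that holds cells in the bone marrow, fell in both genotypes. In HET it read 11.76, 10.44 and 10.12 untreated, 9.06, 9.17 and 8.45 at 2 h, and 8.47, 7.99 and 7.74 at 4 h. In KO it read 11.06, 10.34 and 10.88, then 9.97, 9.51 and 9.28, then 8.3, 8.25 and 8.31. No KO arrays of different times overlapped, and in HET only the 2 h and 4 h arrays did. The fall at 2 h was −1.88 in HET (SE 0.343, adjusted p = 0.00129, and 0.0557 with only its own arrays), and the KO value of −1.17 had an adjusted p of 0.0931 (0.00758 with the block within genotype). By 4 h the falls were −2.71 in HET (adjusted p = 2.15e-05) and −2.47 in KO (adjusted p = 0.000111), with a difference between responses of 0.24 (95% interval −0.80 to 1.27). The KO step from 2 h to 4 h, −1.30 (adjusted p = 0.0434), was lost whichever of its 6 arrays was left out, with adjusted p from 0.0645 to 0.206, and also after median centring (0.0521), after quantile normalization (0.114) and with an intensity trend and robust prior (0.0517). The untreated HET replicate 1 array read 1.48 above the other HET arrays on average; without it the HET fall at 4 h was −2.21 and still passed.

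Ccr2, the receptor for Ccl2 by which monocytes leave the marrow and enter inflamed tissue, fell in HET cells. Its HET arrays ran from 11.67 to 12.47 untreated, from 10.86 to 11.29 at 2 h and from 10.18 to 10.74 at 4 h, with no overlap between times. Its KO arrays ran from 11.59 to 12.18, from 10.77 to 11.56 and from 10.6 to 11.73, so that the 4 h arrays overlapped the other times. The HET differences were −0.97 at 2 h (SE 0.295, adjusted p = 0.0365) and −1.50 at 4 h (adjusted p = 0.000994), and the KO differences were −0.71 (adjusted p = 0.317) and −0.82 (adjusted p = 0.0764). With the block within genotype the KO values passed at 2 h (0.0388) and 4 h (0.0057). The HET call at 2 h was lost without untreated replicate 1 (0.139) or 2 (0.0609) or 2 h replicate 2 (0.0935) or 3 (0.0914), after median centring (0.0539), with array quality weights (0.0579), without the HET arrays numbered 1 (0.122) and with only its own arrays (0.0642). KO replicate 3 read 11.73 at 4 h, above both other KO arrays by over 1 log2 unit, and without it the KO fall at 4 h was −1.18 (adjusted p = 0.0099).

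Ccr1, a receptor for Ccl3, Ccl5 and related chemokines, was dim on these arrays, below the lower quartile of signal on 8 of 18, so the size of its differences is uncertain. Its HET arrays ran from 7.67 to 8.85 untreated, from 6.27 to 7.62 at 2 h and from 7.16 to 7.91 at 4 h. Its KO arrays ran from 6.93 to 7.68, from 6.1 to 6.49 and from 6.38 to 6.79. The untreated and 2 h arrays did not overlap in either genotype. The HET difference was −1.53 at 2 h (SE 0.34, adjusted p = 0.00566) and −0.83 at 4 h (adjusted p = 0.0685, and 0.00487 with the block). The 4 h value passed without untreated replicate 2 (0.0229) or 4 h replicate 3 (0.039). The HET call at 2 h was lost without the 3 HET arrays numbered 1 (0.0602) and with only its own arrays fitted (0.0987). The KO differences were −0.999 (adjusted p = 0.173) and −0.73 (adjusted p = 0.189), which passed with the block within genotype (0.00826 and 0.0204). Ccr1 was the receptor furthest below HET in untreated KO cells, at −0.96 (SE 0.34, adjusted p = 0.615), and stood at −0.86 at 4 h (adjusted p = 0.182).

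From 2 h to 4 h of LPS, 2 receptors fell in HET (4.39% of all genes did) and Lpar6 rose (3.80%), while in KO 1 fell (1.69%) and none rose (2.69%). With limma 6 receptors had an unadjusted p under 0.05 for this step in KO, as did 2707 of all 19475 genes. The comparison of the genotypes at fixed times asked whether loss of the second Wbp7 copy changed receptor levels. In untreated cells no receptor was called higher (0.0565% of all genes) or lower (0.359%) in KO by limma, and 2, Ccr1 and Lpar6, had an unadjusted p under 0.05. At 2 h Cnr2 was called higher (1.22% of all genes) and none lower (1.54%). At 4 h Cx3cr1 was called higher (1.32%) and none lower (1.10%). The unadjusted p was under 0.05 for 3 receptors at each of these times. Over all 19475 genes limma gave such a p for 864 in untreated cells, 2920 at 2 h and 3940 at 4 h. The median over the receptors was −0.15 untreated, 0.21 at 2 h and 0.23 at 4 h, beside medians over all genes of −0.02, 0.00 and −0.06. The 19 cell cycle genes had median differences of 0.87 untreated, 0.995 at 2 h and 1.03 at 4 h. None was called by limma and none had an unadjusted p under 0.05. The HET means include the arrays numbered 1. In these, the cell cycle genes stood at medians of −3.23 (untreated), −3.14 (2 h) and −2.55 (4 h) from the other HET arrays on average. The part of these genes in the receptor differences was not tested.

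**Figure D4:**
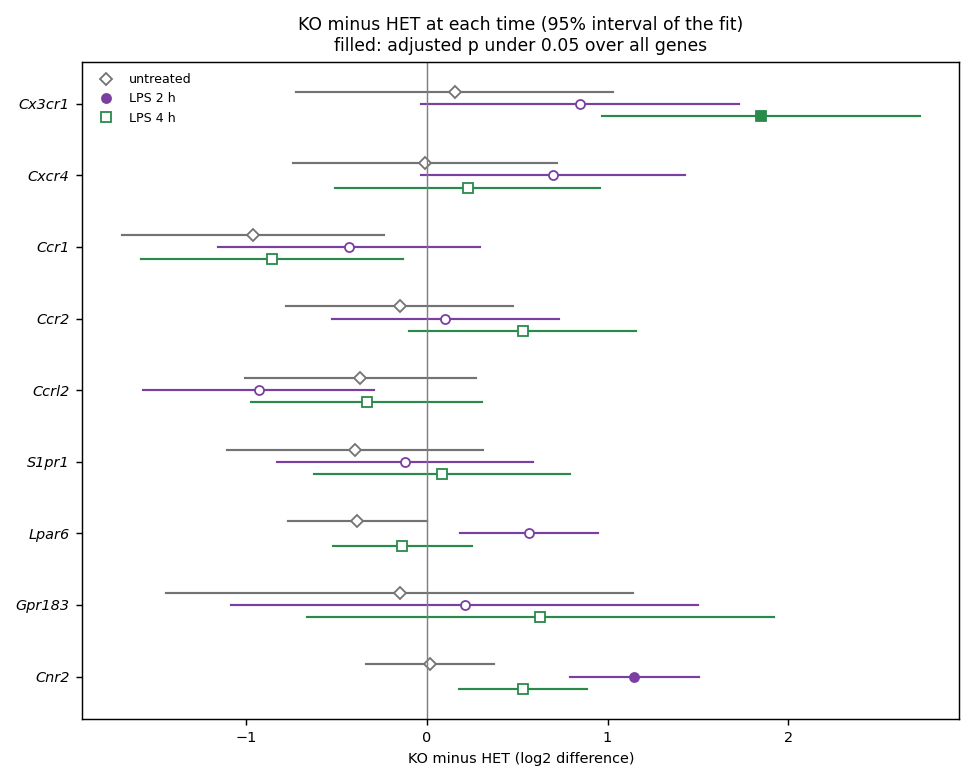
KO minus HET for each receptor (x axis, log2) in untreated cells and after 2 h and 4 h of LPS, with the 95% interval of the limma fit; filled symbols have an adjusted p under 0.05. Cnr2 at 2 h (1.15) and Cx3cr1 at 4 h (1.85) are filled, and most other intervals include 0.

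The difference between the genotypes in the LPS response itself was called for no receptor at 2 h or 4 h by limma, where the unadjusted p was under 0.05 for 2 at each time. Over all genes 0% were called higher and 0% lower at 2 h, and 0.0103% higher and 0.0411% lower at 4 h. Of all 19475 genes, 1099 at 2 h and 1403 at 4 h had an unadjusted p under 0.05 with limma. The receptors' median difference in response was 0.53 at 2 h and 0.48 at 4 h, beside medians over all genes of 0.03 and −0.02. The median absolute LPS response over all genes was 0.153 in HET and 0.108 in KO at 2 h, and 0.252 and 0.153 at 4 h. Such a median grows with the spread between arrays, and it was not taken without the HET arrays numbered 1. Taken between arrays of the same genotype and number, the 2 h changes did not overlap for 4 receptors with KO above HET, Cx3cr1, Ccr1, Lpar6 and Cnr2 (10.6% of all genes), and for none with KO below (5.37%). At 4 h this held for Cx3cr1 and Gpr183 with KO above (12.1% of all genes) and for none with KO below (11.2%). Ccr1 lay below the lower quartile of signal on 8 of 18 arrays, so the size of its 2 h changes is uncertain.

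No other measured receptor of these families was called lower than in untreated cells in either genotype. The 9 were selected with these values in view, so this contrast may follow from the selection. Dim genes also have little room to fall, and how many of the others were dim was not counted. Untreated HET means were 5.05 (Cysltr2), 6.93 (Ccr9), 8.09 (Gpr18) and 8.62 (Lpar1), beside lower quartiles of signal of 6.71 to 6.99. Of 19 other chemokine receptors measured, 4 rose and none fell at 4 h in HET (median 0.18; unadjusted p under 0.05 for 5 in either direction), and 2 rose and none fell in KO, where 15.7% (HET) and 6.48% (KO) of all genes rose. Ccr9, a receptor for homing to the gut, rose by 1.72 in HET (SE 0.178, adjusted p = 3.52e-06) and 1.48 in KO, and Ccr7, which guides dendritic cells to lymph nodes, by 1.29 in HET (adjusted p = 0.0016), with a KO value of 0.74 (adjusted p = 0.0802). Of 30 other lipid receptors, 11 rose and none fell at 4 h in HET (median 0.21; unadjusted p under 0.05 for 13), and 7 rose and none fell in KO, beside the same shares of all genes. At 4 h in HET 9240 of all 19475 genes had an unadjusted p under 0.05 with limma. Hcar2, the receptor for nicotinic acid and ketone bodies, rose by 4.61 in HET (SE 0.17, adjusted p = 1.41e-10) and 3.88 in KO. Lpar1, like Lpar6 a receptor for lysophosphatidic acid, rose by 2.39 in HET (adjusted p = 8.68e-07) and 0.78 in KO (adjusted p = 0.0197), a KO call kept in 2 of 6 leave-outs. The difference between these responses of Lpar1 was −1.61 (adjusted p = 0.107).

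**Figure D5:**
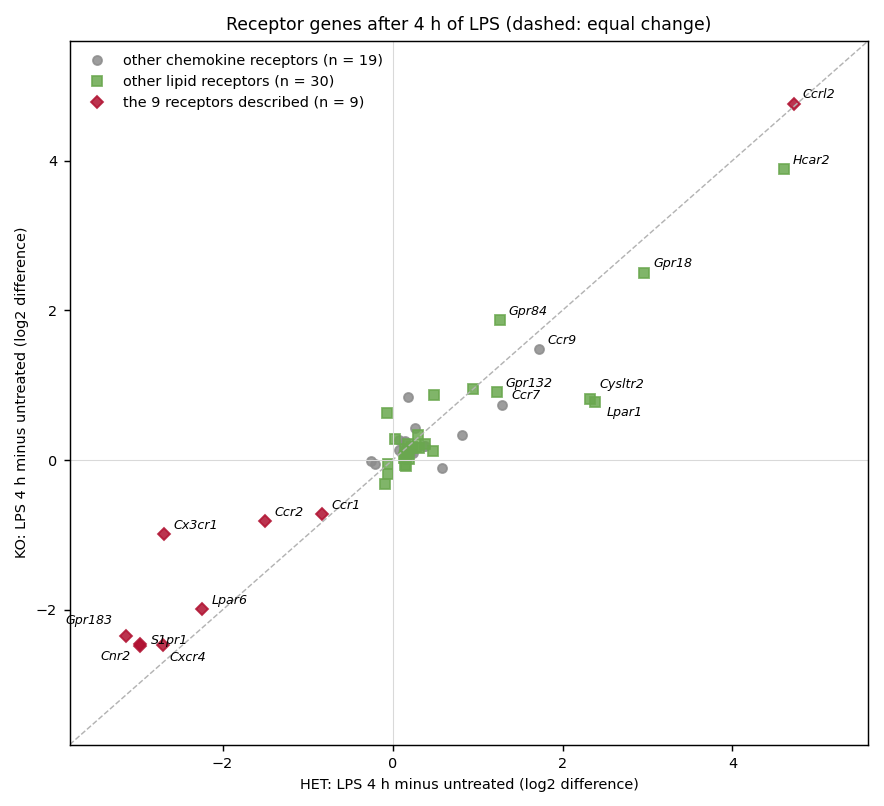
Change after 4 h of LPS in HET (x axis) and KO (y axis), both as log2 differences, for the 9 receptors, 19 other chemokine receptors and 30 other lipid receptors; the dashed line marks equal change. The other receptors sit near 0 or above it, and 8 of the 9 receptors lie in the lower left, with Cx3cr1 (−2.69 and −0.99) farthest above the line among them. The 9 were selected with values of these arrays in view.

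A few other lipid receptors were lower in KO cells under LPS. Lpar1 read 10.77, 10.34 and 10.03 in HET and 8.37, 8.4 and 8.87 in KO at 2 h, and 11.08, 11.06 and 10.89 against 9.16, 9.03 and 9.22 at 4 h. The genotypes did not overlap at either time, and KO minus HET was −1.83 (SE 0.213, adjusted p = 0.000518) and −1.87 (adjusted p = 0.00029), kept whichever array of the comparison was left out. Of the 30 other lipid receptors, 3 were lower in KO at 2 h and 2 at 4 h, and none was higher by limma (unadjusted p under 0.05 for 5 at each time, in either direction), beside 1.54% and 1.10% of all genes called lower. The other two at 2 h were Gpr18 (−0.64, adjusted p = 0.0431), kept in 1 of 6 leave-outs and 6 of 10 other settings, and Cysltr2 (−0.66, adjusted p = 0.0268), kept in 3 of 6 and in 6 of 9. At 4 h Cysltr2 was lower by limma in all 6 leave-outs (−1.79, adjusted p = 1.26e-05). Its signal lay below the lower quartile in both genotypes at 2 h and in KO at 4 h, so the size of these differences is uncertain. With dim genes left out, Cysltr2 was not tested. Of the 19 other chemokine receptors none was called at any time (unadjusted p under 0.05 for 0, 3 and 4). Of all 19475 genes, 864 untreated, 2920 at 2 h and 3940 at 4 h had such an unadjusted p with limma.

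Of 12 genes for the receptors' protein ligands, 7 rose at 2 h in HET and 4 in KO, and none fell. Over all genes 5.56% rose and 10.0% fell in HET, and 2.00% rose and 1.35% fell in KO. At 4 h, 8 rose and none fell in HET (unadjusted p under 0.05 for 9), and 9 rose and none fell in KO. The shares of all genes that rose by then were 15.7% (HET) and 6.48% (KO), and 20.7% and 9.28% fell. In HET 9240 of all 19475 genes had an unadjusted p under 0.05 with limma. Ccl5, a ligand of Ccr1, rose by 3.75 in HET (SE 0.315, adjusted p = 5e-07) and 4.53 in KO, and Ccl12, a ligand of Ccr2, by 3.35 and 3.63. Cx3cl1, the ligand of Cx3cr1, stood at 1.41 in HET (adjusted p = 0.0924) and 2.13 in KO (adjusted p = 0.0317), and its KO call was kept in 1 of 6 leave-outs. Cxcl12, the ligand of Cxcr4, was at 0.13 in both (adjusted p = 0.228 and 0.368), and Rarres2, which encodes the chemerin bound by Ccrl2, at 0.14 and −0.02 (adjusted p = 0.358 and 0.948). At 2 h KO cells had less Ccl12 (−1.57, adjusted p = 0.0268) and Ccl4 (−0.72, adjusted p = 0.0374) than HET cells. Each call was kept in 2 of 6 leave-outs, and 1.54% of all genes were called lower.

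Enzymes that make or break down the lipid ligands moved both ways: 7 of 25 rose and 8 fell at 4 h in HET, and 5 rose and 4 fell in KO. Over all genes 15.7% rose and 20.7% fell in HET, and 6.48% rose and 9.28% fell in KO. Ch25h, which makes the precursor of the oxysterol ligand of Gpr183, rose by 2.53 in HET (SE 0.637, adjusted p = 0.00601) and 2.27 in KO (adjusted p = 0.0226). Its KO call was kept in 2 of 6 leave-outs. Dagla, which makes an endocannabinoid ligand of Cnr2, fell by 2.26 in HET (SE 0.189, adjusted p = 4.87e-07) and 1.52 in KO. Plpp3, a phosphatase that breaks down lysophosphatidic acid and sphingosine 1-phosphate, rose by 3.21 in HET (adjusted p = 2.43e-06) and 2.53 in KO. Of 22 genes for receptor signalling and desensitisation, 4 rose and 9 fell at 4 h in HET, and 3 rose and 4 fell in KO, beside those same shares. Arrb1, a beta-arrestin that uncouples receptors from G proteins, fell by 2.00 in HET (SE 0.213, adjusted p = 4.63e-06) and 1.05 in KO (adjusted p = 0.00286). Rgs2, which shortens G protein signals, fell by 2.20 at 2 h in HET (adjusted p = 4.04e-05) and 2.27 in KO. From 2 h to 4 h Rgs2 rose by 1.01 in HET (adjusted p = 0.0287; kept in 3 of 6 leave-outs) and 1.32 in KO (adjusted p = 0.00871; 5 of 6). At 4 h Rgs2 stood at −1.20 in HET (adjusted p = 0.00261) and −0.96 in KO (adjusted p = 0.0219), the latter kept in 2 of 6 leave-outs. None of the enzymes was called between the genotypes at any time by limma (unadjusted p under 0.05 for 1, 8 and 8). Of all 19475 genes, 864, 2920 and 3940 had such an unadjusted p (untreated, 2 h and 4 h). Among the signalling genes 1 was called between the genotypes, Rgs1, lower in KO at 2 h (−1.16, SE 0.291, adjusted p = 0.0451, kept in 1 of 6 leave-outs).

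Patterns most like each receptor over the 18 arrays were taken among 2550 genes of clear signal and change, as a description, since arrays of a group share their treatment and genotype. Ccrl2 was closest to Ccl4 (Pearson r = 0.996), Il1b (0.995) and Cd69 (0.992). Cnr2 was closest to Pwwp2b (0.989), Spsb2 (0.979) and Lyl1 (0.974), and Lpar6 to Zfp36l2 (0.958), Rhov (0.948) and again Pwwp2b (0.944). Cxcr4 went with Fbxo31 (0.977), S1pr1 with the complement receptor C5ar2 (0.959), Cx3cr1 with Cspg4 (0.953) and Gpr183 with Daglb (0.941). The likeness was lowest for Ccr2, whose nearest gene was Eepd1 (0.907), and for the dim Ccr1, whose nearest was Dtx3 (0.826).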

How the data were processed

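RNA of 18 samples was hybridised to 1-colour Affymetrix gene arrays, 3 in each of 6 groups. Per the submitters' processing notes, RMA and Partek 6.5 were used; the deposited values were on the log2 scale and were used as deposited, with no further scaling. The sources used here give neither the RMA settings nor the genome build, nor say whether probe sets had been left out. Arrays have no counts or depth, and their number limits the precision.

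Of 25344 probe sets, 2677 had no gene and 1530 several in the platform's table; the other 21137 gave 19475 genes. For the 915 genes with several, the probe set with the highest mean was used; each receptor had 1. A mean for each group was fitted to all 18 arrays with limma 3.58.1 in R 4.3.3 (12 residual degrees of freedom, prior 3.17), with Benjamini-Hochberg adjustment over all genes of a comparison and a threshold of 0.05. The fit was also run on simulated data in which all arrays varied independently. Those data had no pairing by number and no deviant HET arrays, so they do not test the fit under these features. Figures were drawn with matplotlib 3.10.9.

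The receptors, the gene lists, the tests and the alternatives were chosen with earlier results of these data known. Named outside the 9 receptors were, per list and comparison, up to 4 called genes with the largest change and up to 2 others with the highest mean, and the 3 genes most like each receptor; outside that rule, Cxcl12 in HET, Rarres2 and Chil3 were chosen after their values were seen. The lists held other chemokine receptors (19 of 20 measured), other lipid receptors (30 of 33), ligands (12 of 12), lipid enzymes (25 of 26), signalling genes (22 of 24), and markers of macrophages, monocytes, neutrophils, dendritic cells, lymphocytes, stromal cells and the cell cycle. Between the genotypes no marker of these cell types or of the cell cycle was called at any time other than Chil3 of the monocyte list. As a check of pairing, each array's deviation from its group mean was correlated across genes with that of arrays with its number: r lay between 0.32 and 0.796 for the 18 pairs within a genotype, so numbers were read as pairing arrays there, which the labels do not state. Across genotypes r ran from −0.353 to 0.39 in 27 pairs. The block within genotype was a random effect (correlation 0.398). Further alternatives were centring each array on its median, quantile normalization, dropping dim genes (mean signal under the 40th percentile), averaging probe sets, a robust prior with an intensity trend, weighting arrays by quality, number as a fixed term over all arrays, fitting only the comparison's arrays, dropping the HET arrays numbered 1, and leaving out each array of the comparison in turn.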

Additional observations from a re-analysis of the deposited data

Results flagged for a closer look

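For Cysltr2, a receptor for cysteinyl leukotrienes outside the 9, the genotypes differed in the LPS response at 4 h by −1.51 (SE 0.205, adjusted p = 0.0205 over all genes with limma's interaction contrast). Its HET arrays read 5.03, 5.07 and 5.05 untreated and 7.51, 7.19 and 7.41 at 4 h, and its KO arrays 4.88, 4.58 and 4.86 and then 5.69, 5.28 and 5.79. The call was kept in 7 of 12 leave-outs and lost without untreated HET replicate 1 (adjusted p = 0.0533), 2 (0.0755) or 3 (0.0745) or untreated KO replicate 1 (0.0886) or 3 (0.0646). All values other than those of HET at 4 h lay below the lower quartile of signal (6.71 to 6.99), so the size is uncertain, and the gene was not tested with dim genes left out.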

How the results depend on the processing

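Of the 31 receptor differences that passed, 24 were kept whichever array of their own comparison was left out and 7 were lost without at least 1 of these. Arrays outside a comparison were not left out singly for it. No called difference changed direction under any alternative run. The count of receptors called for KO minus HET at 4 h, 1 as reported, was 2 with array quality weights, 0 without the HET arrays numbered 1 and 0 with only its own arrays fitted, and ran from 0 to 1 over leave-outs. For KO minus HET at 2 h it was 2 with a replicate block over all arrays. For LPS at 2 h in HET it was 4 with only its own arrays, against 7. For LPS at 2 h in KO it was 7 with array quality weights and 7 with the replicate block within genotype, against 4; it was 3 after quantile normalization and 3 with an intensity trend and robust prior, where S1pr1 was lost. For 4 h against 2 h in HET it was 6 with the replicate block within genotype and 1 with its own arrays, against 3. For 4 h against 2 h in KO, 1 as reported, it was 0 after median centring, 0 after quantile normalization, 0 with an intensity trend and robust prior, 3 with dim genes left out, 3 with the replicate block over all arrays, 5 with array quality weights, and 4 in each of 3 settings: the block within genotype, no HET arrays numbered 1, and its own arrays only. Over leave-outs it ran from 0 to 2. For the difference in the 2 h response it was 1 with the block within genotype, against 0. The causes were not tested. With the block within genotype 16 of 99 receptor values gained a call and none lost one. How many of all genes were called under each alternative was not counted, so these receptor counts have no background beside them. With dim genes left out, Ccr1 was not tested. Averaging the probe sets of a gene changed no call.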

Other observations

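In untreated cells, HET replicate 1 read higher than the other HET arrays on average for all 9 receptors, from 0.12 (Cnr2) and 0.13 (Ccr1) to 0.78 (Ccrl2, Lpar6 and Gpr183) and 1.48 (Cxcr4). After LPS its receptors went both ways, from −0.51 (Ccr1) to 0.52 (Gpr183) at 2 h and from −0.88 (Cx3cr1) to 0.95 (S1pr1) at 4 h. These are values of single arrays with no test.

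Ordered by group means, Cx3cr1 ran from untreated KO and HET cells through KO at 2 h, KO at 4 h and HET at 2 h to HET at 4 h, so that KO cells at 4 h (11.57) stood beside HET cells at 2 h (11.33), a gap of 0.25 against an SD of 0.812. The order for Cnr2 put KO cells at 2 h above KO cells at 4 h by 0.6 (larger SD 0.304) and these above HET cells at 4 h by 0.53 (larger SD 0.332), while HET cells at 4 h and 2 h were 0.01 apart.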
